A study of Mus musculus with 8 samples.

Results

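A single expression array labelled as GFP-transfected JoMa1, a transfection control, was set against 3 arrays of parental JoMa1. The comparison took every probe set that the platform annotation ties to 1 gene symbol, 34945 of the 45101 on the array, and read them as 18193 genes, each through its probe set with the highest mean level. JoMa1 is a mouse line of neural crest precursor cells, and both groups carry that label. The GFP array differs in its label only by the transfectant, a GFP control. The sources used here do not give how the cells were transfected, or whether they were a clone or a pool. The study also profiled 4 lines grown out of tumours of MYCN-transfected JoMa1. They carry the numbers 3 to 6 and serve here only to place the levels. Each level is a log2 RMA value, so that a difference of 1 is a 2-fold change.

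Neural crest cells leave the dorsal neural tube, migrate through the embryo and give rise to sympathetic neurons, Schwann cells, melanocytes and, in the head, mesenchyme that makes bone and cartilage. JoMa1 was made to proliferate with a MYC fusion protein that becomes active when tamoxifen is added, and the sources used here do not say whether tamoxifen was present in these cultures. MYC and MYCN are transcription factors that pair with MAX and bind E-box sequences. Their best known targets serve ribosome production and nucleotide synthesis, and MYCN is amplified in high-risk neuroblastoma.

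The array labelled GFP-transfected correlated with the parental arrays at r = 0.9772 to 0.9785 over all probe sets, below the 0.9967 to 0.9978 among the parental arrays. Its quality readings were mostly close to theirs. The excess of the 3' over the 5' probe set was 0.616 against 0.627 to 0.641 for Actb and 0.075 against 0.053 to 0.078 for Gapdh. The 18S probe sets read 13.77 against 14.10 to 14.11, and the bacterial trpnX controls, which mark the level of no signal, read 3.84 against 3.89 to 3.91. The hybridisation control bioB stood apart on parental array 3, at 7.70 against 8.86 to 9.17 on the other 7 arrays. None of the 4 sex-linked genes checked was called, and Xist read 13.37 against 13.12 to 13.30.

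The transfected gene of the study was read first, and it goes against the label. Mycn probe set 1425923_at read 7.29, 7.49 and 7.49 in the parental arrays and 11.73 in the array labelled GFP-transfected. The tumour lines read 14.13, 14.08, 14.20 and 14.26 with it. The array labelled GFP-transfected therefore lay between the other groups, apart from both, higher than the parental mean by 4.31 (19.8-fold, SE 0.12, limma adjusted p = 0.000118) and lower than the tumour lines (difference -2.43, limma adjusted p = 2.9e-06). Probe set 1417155_at did the opposite, with 8.23, 8.14 and 8.01 in the parental arrays, 4.33 in the array labelled GFP-transfected and 4.53 to 4.69 in the tumour lines. That is a difference of -3.80 from the parental mean (SE 0.12, limma adjusted p = 0.000138). The remaining probe set, 1425922_a_at, read 5.88 against a parental mean of 5.76 (difference 0.12, adjusted p = 0.708). Averaged over the 3 probe sets, Mycn differed by 0.21 and was not called (adjusted p = 0.126). The label names GFP as the only transfectant, so every direction below belongs to the array as labelled, not to GFP. The sources used here do not tell which part of the transcript each probe set reads, or whether the transfected MYCN was of mouse or human sequence.

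**Figure D1:**
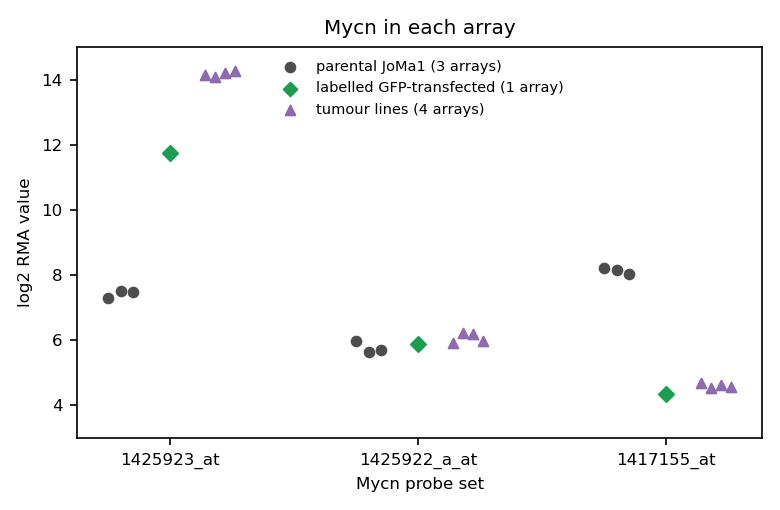
Log2 RMA values of the 3 Mycn probe sets, with 1 point per array for parental JoMa1 (3 arrays), the array labelled GFP-transfected (1 array) and the tumour lines (4 arrays). With 1425923_at the array labelled GFP-transfected, at 11.73, lies between the parental arrays and the tumour lines, and with 1417155_at, at 4.33, it lies with the tumour lines.

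Among all genes, 3994 (22.0%) were called at a limma adjusted p under 0.05, 1926 higher (10.6%) and 2068 lower (11.4%) in the array labelled GFP-transfected. The larger differences were mostly falls. At least 2-fold differences numbered 368 higher (2.02%) and 787 lower (4.33%), at least 4-fold differences 55 and 266, and at least 16-fold differences 5 and 40. The median difference of all genes was -0.00166. The shares of 10.6% higher and 11.4% lower are the reference for every list count below, but not a like baseline. They take in dim genes, which were called less readily. A fit of the probe sets above the median mean level alone called 2649 genes higher and 2655 lower. The shares are therefore low for lists of well-expressed genes. Members and lists were also chosen with earlier results of these data known. The array labelled GFP-transfected was the lowest of all 8 arrays for 21.4% of all genes and the highest for 22.0%. With 1 array on one side, the error rests on the parental arrays alone, whose median SD was 0.0929 with 2 residual degrees of freedom, and the single array was assumed to vary like them. The labels do not say whether the 3 parental arrays are separate cultures, and the p-values may measure technical spread only. The number of calls also rested on parental array 3. Without it 1880 genes were called, 712 higher and 1168 lower, and without parental array 1 the higher calls numbered 1253. In a fit where all 8 arrays share 1 spread, called the 8-array fit below, 1248 genes were higher. The count of genes called and at least 2-fold apart stayed within 1.5 times its value of 1155 in each alternative.

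**Figure D2:**
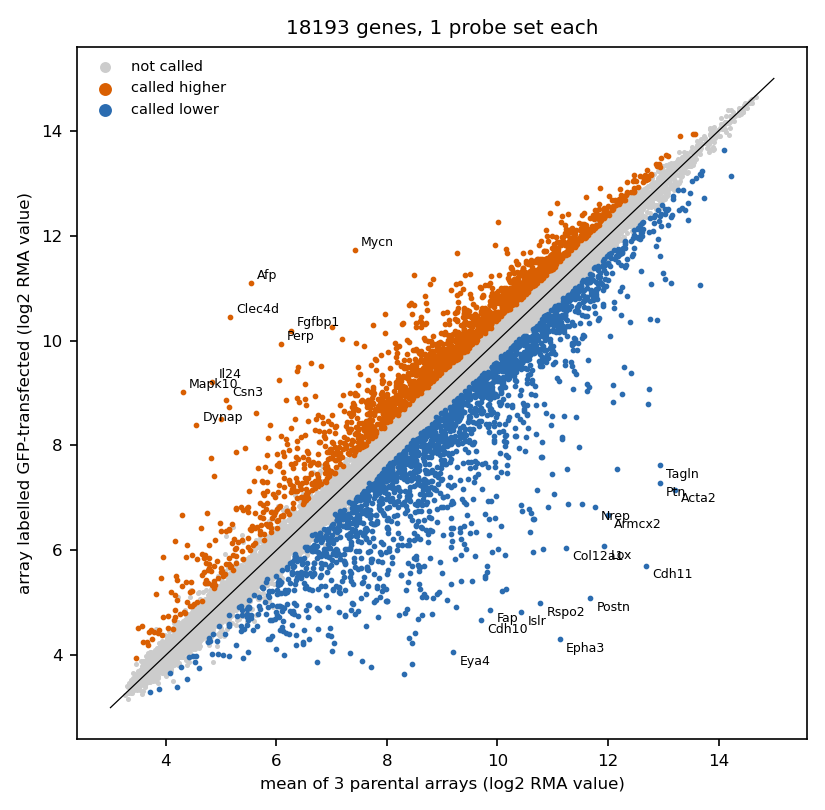
Log2 RMA value of each of 18193 genes in the array labelled GFP-transfected against the mean of 3 parental arrays, with called genes coloured by direction and the line of equal values drawn in black. The points farthest below the line, such as Cdh11 (12.69 to 5.70) and Epha3 (11.13 to 4.30), lie farther from it than the highest above it, Afp (5.55 to 11.10).

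The largest measured fall was that of Cdh11, which encodes a cadherin of mesenchymal and migrating crest cells. It read 12.70, 12.68 and 12.69 in the parental arrays and 5.70 in the array labelled GFP-transfected (difference -6.99, SE 0.09, 127-fold, limma adjusted p = 6.7e-05). The tumour lines ranged from 5.56 to 10.50 and overlapped that value. Epha3, a receptor for ephrins in cell guidance, read 11.19, 11.14 and 11.06 against 4.30 (difference -6.83), and the tumour lines lay between, at 6.14 to 7.50. Its value of 4.30 is near the level of no signal, which limits how far a fall could be measured, so the order of the largest falls is not settled. Postn encodes periostin, a matrix protein of mesenchyme, and read 11.72, 11.72 and 11.60 against 5.09 (difference -6.59, 96.6-fold). Tumour lines had 10.19 to 11.72, near the parental level. The other large falls were those of the smooth muscle actin gene Acta2 (-6.06), the collagen cross-linking enzyme gene Lox (-5.85), the Wnt enhancer gene Rspo2 (-5.79), the growth factor gene Ptn (-5.66), Islr (-5.61), Armcx2 (-5.33), the actin-binding protein gene Tagln (-5.31), the collagen gene Col12a1 (-5.19), the transcription cofactor gene Eya4 (-5.14), Cdh10 (-5.04), the fibroblast surface protease gene Fap (-5.00) and Nrep (-4.93). All 15 had limma adjusted p-values of 0.000181 or lower. All 15 were picked as falls below every parental array, so the shares of all genes given next are not a like baseline. The array labelled GFP-transfected was the lowest of all 8 arrays for 11 of them, against 21.4% of all genes. Against the tumour lines 10 of the 15 were called lower (all genes 13.6%). Cdh11, Islr, Cdh10 (-0.35 against the tumour-line mean), Fap (0.31) and Nrep (0.60) were not called. Dimmer probe sets of Acta2 (-0.40), Lox (-0.07), Eya4 (-0.40 and 0.07), Cdh10 (0.20), Col12a1 (-0.05 and -0.07) and Rspo2 (-0.09) were not called.

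The largest rise was that of Afp, the alpha-fetoprotein gene of fetal liver and yolk sac. Its values were 5.72, 5.38 and 5.53 in the parental arrays and 11.10 in the array labelled GFP-transfected (difference 5.55, SE 0.15, 47.0-fold, limma adjusted p = 0.000112). Its other probe sets, both dim, differed by -0.61 and 0.74 and were not called. Clec4d, a lectin receptor gene of myeloid cells, read 5.26, 5.27 and 4.96 against 10.45 (difference 5.28, 38.9-fold). For both genes the tumour lines lay between the groups, at 7.55 to 9.26 for Afp and 6.82 to 8.18 for Clec4d. Mapk10, the neuronal JNK kinase gene, read 4.38, 4.21 and 4.33 against 9.02 (difference 4.72, 26.3-fold), while the tumour lines stayed at 3.69 to 4.18. The cytokine gene Il24 (4.37), Mycn (4.31), the FGF carrier gene Fgfbp1 (3.93), the desmosome and p53 target gene Perp (3.85), Dynap (3.83), the casein gene Csn3 (3.78), the meiotic recombination gene Spo11 (3.59), the lymphocyte adaptor gene Lat2 (3.50), Serpinb9b (3.24), the leukocyte integrin gene Itgb2 (3.21), the mucin-type glycosylation enzyme gene Galnt3 (3.11) and the transporter gene Slco4a1 (3.04) followed. Across the 15 rises the highest limma adjusted p was 0.00204. These 15 were picked as rises above every parental array, so the shares of all genes given next are not a like baseline. For 12 of the 15 the array labelled GFP-transfected was the highest of all 8 arrays, against 22.0% of all genes. Against the tumour lines 14 of the 15 were called, 12 of them higher (all genes 15.9%), Mycn and Dynap lower. Perp was the exception, at 9.93 against 9.27 to 10.50. Other probe sets of Mapk10 (-0.06), Csn3 (0.27), Lat2 (-0.12 and -0.09) and Galnt3 (0.29 and -0.08) were not called.

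Genes of the fibroblast matrix were lower almost as a body. Of 26 measured, 23 fell and 1 rose, with a median difference of -2.21, and 20 of the falls were at least 2-fold. In all genes 11.4% fell, which is not a like baseline for a list chosen with earlier results of these data known. The array labelled GFP-transfected was the lowest of all 8 arrays for 21 of the 26, against 21.4% of all genes. As in any bulk sample, fewer cells of a type and less RNA per cell cannot be told apart. Col1a1, the main chain of collagen I, read 10.70 to 10.90 in the parental arrays and 6.02 in the array labelled GFP-transfected (difference -4.80, SE 0.12), and 11.35 to 11.63 in the tumour lines. Fn1, the fibronectin gene, read 12.41 ± 0.05 (SD, n = 3) against 9.38 (-3.03), and Dcn, which encodes the small proteoglycan decorin, 9.81 ± 0.19 (SD, n = 3) against 5.70 (-4.11). In these examples parental and tumour-line values were high and the array labelled GFP-transfected was alone below them. All measured collagen VI genes of the list fell, Col6a1 (-2.88), Col6a2 (-3.71) and Col6a3 (-3.35).

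Some matrix genes fell less. Col3a1, a chain of reticular fibres, stayed at 13.14 against 14.22 ± 0.02 (SD, n = 3; difference -1.08), and the matricellular gene Sparc at 12.35 against 13.14 ± 0.03 (SD, n = 3; difference -0.79). The PDGF receptor genes fell as well, Pdgfrb (-2.64) and Pdgfra (-1.60). The elastin gene Eln (-0.05, adjusted p = 0.877) and the surface marker gene Thy1 (0.16, adjusted p = 0.571) were not called. Col5a3, a minor collagen V chain, was the 1 rise (0.63, limma adjusted p = 0.031). It was not called without parental array 1 (adjusted p = 0.0579), without parental array 3 (0.0873), in the 8-array fit (0.623) or over the mean of its probe sets (0.0745). Of the 23 falls, 21 were called without parental array 3 and 20 in the 8-array fit. Against the tumour lines, 22 of the 26 were lower and 0 higher in the array labelled GFP-transfected, with a median of -3.40. Of all genes 13.6% were lower against the tumour lines.

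**Figure D3:**
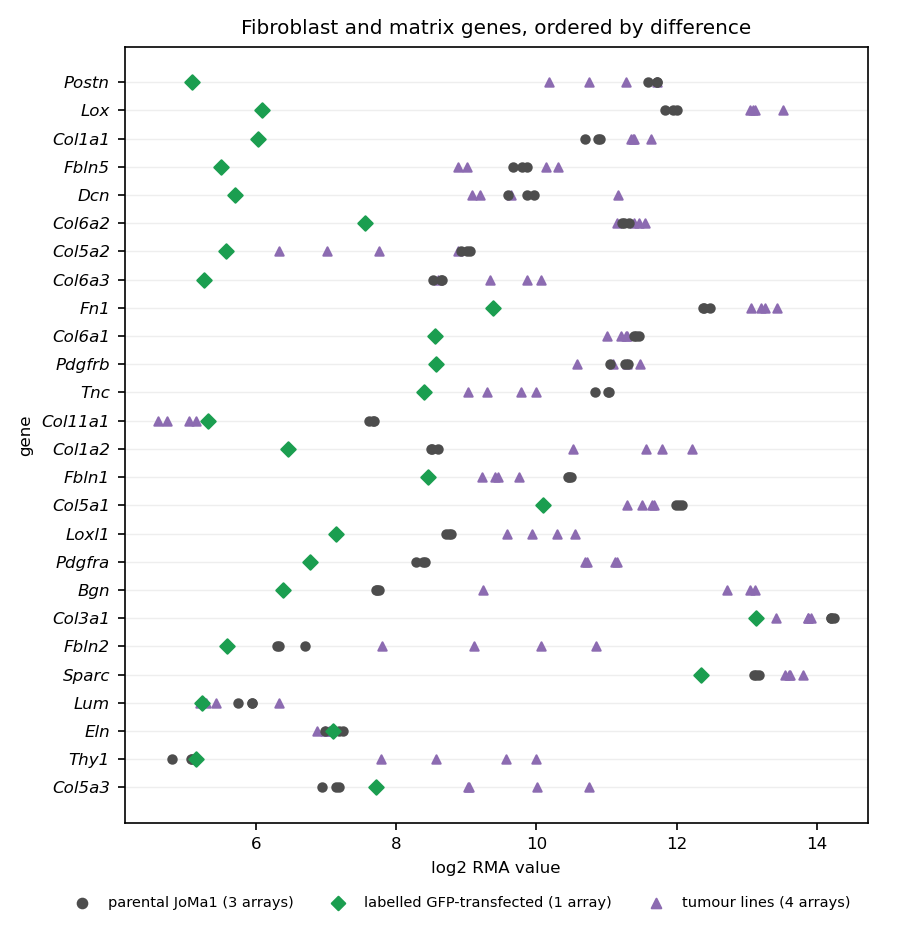
Log2 RMA values of the 26 measured fibroblast matrix genes, with 1 point per array for parental JoMa1, the array labelled GFP-transfected and the tumour lines, ordered by the difference between the array labelled GFP-transfected and the parental mean. The array labelled GFP-transfected is the lowest of the 8 arrays in 21 genes, from Postn (5.09) to Sparc (12.35), and Col11a1, Lum, Eln, Thy1 and Col5a3 are the exceptions.

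Marker lists of 3 other cell types had few calls. The mean level of the 17 macrophage and leukocyte markers was 5.60 in the array labelled GFP-transfected and 5.51 to 5.61 in the parental arrays, and 1 rose (Cd68, 0.75, against 10.6% of all genes). The pan-leukocyte gene Ptprc read 4.25 against 4.14 ± 0.24 (SD, n = 3) and the macrophage gene Adgre1 4.44 against 4.43 ± 0.04 (SD, n = 3), both near the trpnX level. Outside that list, Clec4d (5.28), Lat2 (3.50) and Itgb2 (3.21), known from myeloid cells, lymphocytes or leukocytes, were among the largest rises. Mean levels of the 13 endothelial markers were 5.90 against 5.72 to 5.91, and 1 of them rose, the endothelial cadherin gene Cdh5 (1.96, limma adjusted p = 0.000791). A dimmer probe set of Cdh5 did not (-0.21). None of the 6 erythroid markers was called, and their means were 5.24 against 5.17 to 5.32. Any part of these cells in the results was not tested.

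Matrix proteases and their inhibitors fell in 11 and rose in 2 of 18 measured genes (median -1.21). The collagenase gene Mmp13 read 8.58, 8.66 and 8.70 in the parental arrays and 5.12 in the array labelled GFP-transfected (difference -3.53, SE 0.10), below the tumour lines at 6.72 to 8.52. The elastase gene Mmp12 (-3.75), the inhibitor gene Timp3 (-3.10) and Mmp11 (-2.62) fell too. In the plasminogen system the urokinase gene Plau fell (-1.72), and its receptor gene Plaur went the other way, from 9.34, 9.47 and 9.29 to 10.98 (difference 1.61, SE 0.11). The inhibitor gene Serpinb2 also rose (0.76), but was not called without parental array 3 (adjusted p = 0.0713) or in the 8-array fit (0.483). In a dimmer probe set, Timp3 differed by -0.32 and was not called.

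The smooth muscle list divided by member. Acta2 read 13.23, 13.15 and 13.25 in the parental arrays and 7.15 in the array labelled GFP-transfected, and Tagln 12.98, 12.93 and 12.91 against 7.63. Both genes lay far above that in every tumour line, at 13.83 to 14.28 and 12.57 to 13.68. The tropomyosin genes Tpm2 (-1.34) and Tpm1 (-0.64) and the gamma actin gene Actg2 (-1.15) fell less, and in the 8-array fit Actg2 (adjusted p = 0.264) and Tpm1 (0.0934; 0.0506 without parental array 3) were not called. In total 8 of 15 fell and 2 rose (median -0.39), with 5 falls called without parental array 3 or in the 8-array fit. The rises were those of Smtn (1.26), the smoothelin gene, and Mylk (1.31), the myosin light chain kinase gene, the latter not called in the 8-array fit (adjusted p = 0.247) nor through a dimmer probe set (0.14). Myocd, the coactivator that switches on this programme, was near the level of no signal (5.07 against 5.08 ± 0.11, SD, n = 3), as were Myh11 and Cnn1.

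Basement membrane genes moved less. Of 19, 6 fell and 1 rose (median -0.14), and without parental array 3 these counts were 4 and 0. The collagen IV chain genes Col4a1 (-1.05) and Col4a2 (-1.19) fell about 2-fold, and Col4a5 fell by 2.36 on the log2 scale, which the 8-array fit did not call (adjusted p = 0.13). Col4a1 read 11.81 in the array labelled GFP-transfected against 12.86 ± 0.09 (SD, n = 3) in the parental arrays, while the tumour lines were at 5.55 to 5.94. The nidogen gene Nid1, which links laminin to collagen IV, was at 12.45 against 12.54 ± 0.03 (SD, n = 3; difference -0.09, adjusted p = 0.585). In collagen IV the array labelled GFP-transfected was thus 6.04 above the tumour lines for Col4a1 (limma adjusted p = 1.1e-07), where in collagen I it was below them for Col1a1 (-5.41, adjusted p = 1.1e-07).

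Adhesion and guidance genes fell in part. Among 29 cadherins, integrins and adhesion molecules 8 fell and 4 rose (median -0.03), with 6 falls without parental array 3 and 5 in the 8-array fit. Beside Cdh11 and Cdh10, the neural adhesion gene Ncam1 fell (-2.42), though 3 dimmer probe sets of it were not called. The integrin genes parted by subunit. Itgb8 (-2.12) and Itgb5 (-1.43) fell, Itgb7 rose from 7.69, 7.77 and 7.80 to 10.31 (2.55, SE 0.10), and the laminin receptor subunit Itga6 rose from 9.79, 9.93 and 9.86 to 11.10 (1.24, SE 0.10). Tumour lines had Itga6 at 5.27 to 7.38. The 8-array fit called neither Itga6 (adjusted p = 0.306) nor Itgb8 (0.066).

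Among 18 Eph receptors and ephrins 9 fell and 1 rose (median -0.60). The ephrin gene Efnb2 read 11.14, 11.05 and 11.16 against 9.23 (-1.89), with other probe sets at -0.65 and -0.33 not called, and Efna4 fell by 1.30. Epha2 was the exception, with 8.46, 8.55 and 8.56 in the parental arrays and 9.83 in the array labelled GFP-transfected (1.31, SE 0.09). Epha7 (-2.39) fell as well, but not in the 8-array fit (adjusted p = 0.0693) and not through its other probe sets. Of 15 semaphorins and their receptors 6 fell and 0 rose (median -0.28). The repellent ligand genes Sema3d (8.47, 8.24 and 8.36 against 4.88) and Sema3a (9.21, 9.24 and 9.17 against 6.90) and the receptor gene Nrp1 (-2.29) led. Nrp1 was not called in the 8-array fit (adjusted p = 0.0908).

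Signalling by TGF-beta family ligands was read through its ligands, receptors and targets. Tgfbi, a matrix gene induced by TGF-beta, read 12.12, 12.16 and 12.19 in the parental arrays and 7.55 in the array labelled GFP-transfected (difference -4.61, SE 0.09, limma adjusted p = 7.59e-05). The ligand genes Tgfb3 (-1.77) and Tgfb2 (-1.50), the activin subunit gene Inhba (-2.00) and the receptor gene Tgfbr2 (-1.11) fell. Ankrd1 and Ccn2, targets of the YAP coactivator, went the other way. Ankrd1 read 7.61, 7.71 and 7.45 against 9.90 (2.31, SE 0.13) and Ccn2 10.17, 10.19 and 10.11 against 11.74 (1.58, SE 0.09), with the tumour lines at 8.21 to 9.49 and 12.42 to 13.38. Over the list 9 of 17 fell and 2 rose (median -0.43). Tgfbr2 was not called in the 8-array fit (adjusted p = 0.0652).

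In the BMP list 9 of 19 fell and 1 rose (median -0.31). Id3, an inhibitor of basic helix-loop-helix factors and a direct BMP target, read 11.58, 11.55 and 11.48 against 6.89 (difference -4.65, SE 0.09), and the tumour lines lay at 12.01 to 12.59. Id1 (-1.61), Id2 (-1.22) and the inhibitory Smad gene Smad6 (-1.84) fell as well. So did the ligand gene Bmp4 (-2.91), the receptor gene Bmpr1b (-2.70) and the antagonist gene Grem1 (-1.99). The ligand gene Bmp7 rose from 7.63, 7.43 and 7.85 to 8.80 (1.16, SE 0.18), above the tumour lines at 7.03 to 7.29.

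IGF axis genes fell in 9 of 13 and rose in 0 (median -0.99). The binding protein gene Igfbp3 read 8.85, 8.96 and 8.67 against 4.79 (-4.03, SE 0.13), and Igfbp2 (-2.69), Igfbp6 (-2.25) and Igfbp4 (-1.82) followed, all below every tumour line. Among 27 Wnt pathway genes 11 fell and 1 rose (median -0.26). The antagonist gene Sfrp1 (-2.90), the receptor genes Lgr5 (-2.43) and Fzd1 (-2.06) and the ligand gene Wnt5a (-1.92) had the largest falls. The ubiquitin ligase gene Znrf3 was the rise (0.54), and it was not called without parental array 3 (adjusted p = 0.0677). Of 19 Notch pathway genes 4 fell and 1 rose (median -0.06). The receptor gene Notch3 read 9.21, 9.24 and 8.79 against 6.83 (-2.25), and its ligand gene Jag1 fell by 1.12.

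Of 14 EGF family ligands and receptors 3 fell and 2 rose (median -0.07), against 11.4% and 10.6% of all genes, and 2 of the falls were called without parental array 3, without parental array 1 or in the 8-array fit. Egfr itself read 9.92, 9.80 and 9.80 in the parental arrays and 6.30 in the array labelled GFP-transfected (difference -3.54, SE 0.10), below the tumour lines at 8.35 to 8.80, while 4 dimmer probe sets of it were not called. The ligand gene Nrg1 fell (-1.28), and the ligand genes Ereg (1.44) and Hbegf (1.14) rose. Of 16 genes that ERK signalling induces or that restrain it, 7 rose and 1 fell (median 0.45, all genes higher 10.6%). The AP-1 gene Fosl1 read 8.41, 8.45 and 8.44 against 10.72 (2.28, SE 0.09), the ETS factor gene Etv4 8.54, 8.46 and 8.49 against 10.67 (2.17, SE 0.09), and the phosphatase gene Dusp5 rose by 1.32. Dusp6, the ERK phosphatase gene, fell (-0.73), but not in the 8-array fit (adjusted p = 0.136). That fit called 4 of the 7 rises, and 5 were called without parental array 3.

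Immediate early genes, which cells induce within minutes of a stimulus, had more falls than rises. Egr1, a zinc finger factor gene, read 12.32, 12.26 and 12.15 in the parental arrays and 8.99 in the array labelled GFP-transfected (difference -3.26, SE 0.11). Egr3 (-3.43), Fos (-2.69), Egr2 (-2.42) and Fosl2 (-2.14) fell as well. For Egr1 and Egr3 the tumour lines lay between, at 9.69 to 11.44 and 6.48 to 7.38. Of 22 measured genes 8 fell and 3 rose (median -0.23), the rises being Fosl1, the stress factor gene Atf3 (7.55, 7.45 and 7.63 against 8.86, difference 1.32) and Ier3 (1.09; not called without parental array 3, adjusted p = 0.0516, or in the 8-array fit, 0.22). Without parental array 3 or in the 8-array fit 5 falls were called. A dimmer Egr3 probe set differed by -0.04.

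Interferon-stimulated genes were lower in 13 of 21 measured and higher in 0, against 11.4% and 10.6% of all genes. Interferon acts on many of its targets through a promoter sequence, the interferon-stimulated response element, which has a core of 2 GAAA copies with any 2 bases between them, which on the other strand is 2 TTTC copies. Both were searched in RefSeq promoter windows of build GRCm38.p6, from 250 bases before to 50 after each gene start. The core was in 1079 of 27025 genes with a window (3.99%) and in 11 of the 16 list members with one (68.8%), 8 of the 11 lower members and 3 of the 5 not called. It was thus in members of both kinds. The stretches around the core, in capitals, are shown for the lower members with the largest falls among those where it lies before the gene start, all on the plus strand of the build. A match is a description of these letters. Ifit1 holds the core 2 times in its window, and its stretch covers both.
Ifit1, chr19:34640760-34640819: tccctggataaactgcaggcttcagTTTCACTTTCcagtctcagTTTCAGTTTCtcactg
Gbp2, chr3:142620579-142620638: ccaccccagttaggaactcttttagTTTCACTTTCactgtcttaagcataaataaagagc
Igtp, chr11:58199497-58199555: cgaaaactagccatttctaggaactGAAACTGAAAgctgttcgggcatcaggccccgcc
Gbp3, chr3:142559974-142560033: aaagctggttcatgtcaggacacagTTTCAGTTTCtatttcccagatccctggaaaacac

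Ifit1, an inhibitor of viral translation, read 8.36, 8.38 and 8.22 in the parental arrays and 4.81 in the array labelled GFP-transfected (difference -3.51, SE 0.11, limma adjusted p = 0.000136). The guanylate-binding protein gene Gbp2 read 9.36, 9.17 and 9.19 against 5.84 (-3.40, SE 0.11). The GTPase gene Igtp read 8.01, 8.20 and 7.91 against 5.99 (-2.05), and Gbp3 7.46, 7.23 and 6.91 against 5.58 (-1.62). All 4 were higher in every tumour line than in any parental array, at 10.24 to 12.31 for Ifit1, so that the array labelled GFP-transfected stood on the far side of the parental arrays. The median difference of the list was -1.05. The array labelled GFP-transfected was the lowest of all 8 arrays for 18 of the 21, against 21.4% of all genes. Rtp4 (-2.85), the RNA sensor gene Ifih1 (-2.72) and Oasl2 (-2.64) belong to them, as does the signalling factor gene Irf9 (-0.81). Against the tumour lines 15 were lower and 0 higher (median -3.87, all genes lower 13.6%). Genes already near the level of no signal in the parental arrays could fall little, and Mx1 was at 4.09 against a parental mean of 3.93. In the 8-array fit 5 falls were called, with the same differences, and Igtp (adjusted p = 0.134), Gbp3 (0.155), Oasl2 (0.0796) and Irf9 (0.163) were not among them. That fit takes in the tumour lines, whose spread for Oasl2, for example, ran from 8.39 to 11.35.

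MHC class I presentation genes fell in part. Of 14 measured genes 7 fell and 1 rose (median -0.61). With each gene's probe sets averaged 11 fell and 1 rose, and with the trended and robust prior 10 fell and 1 rose. In the 8-array fit 5 fell and 0 rose. A limit of the falls to the processing steps is therefore not shown. The immunoproteasome subunit genes Psmb9 (7.48, 7.80 and 7.29 against 5.66, difference -1.86) and Psmb8 (7.45, 7.46 and 7.70 against 5.85, difference -1.69) fell, as did the peptide loading gene Tapbp (-1.79), the proteasome activator gene Psme1 (-1.49) and the peptide transporter gene Tap1 (-1.05). The heavy chain genes H2-K1 (9.41 against 9.21 to 9.36) and H2-D1 (9.44 against 9.45 to 9.60) were not called in the main fit. Nor was the light chain gene B2m (13.00 against 13.23 to 13.32). Nlrc5, the activator of class I genes, was the rise (0.99), and it was not called without parental array 3 (adjusted p = 0.0926) or in the 8-array fit (0.142). The interferon core was in the promoter windows of 3 of the 12 members with one, 1 of the 6 lower and 2 of the 6 not called. Dimmer probe sets of Psmb8 (0.32) and Tapbp (-0.32) were not called. Tap1 was not called in the 8-array fit (adjusted p = 0.103) or over the mean of its probe sets (0.147).

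Of 22 chemokines, cytokines and acute phase genes 10 fell and 0 rose (median -0.30). Cxcl12, a guidance chemokine of migrating crest cells, read 9.41, 9.36 and 9.23 against 5.42 (-3.91, SE 0.11), with the tumour lines at 11.84 to 12.85 and a dimmer probe set not called (-0.12). The monocyte chemokine gene Ccl7 (-2.38) and the acute phase gene Saa3 (-1.57) fell. Il33 fell too (-2.54), though not in the 8-array fit (adjusted p = 0.0939). Without parental array 3 the falls numbered 6, and in the 8-array fit 3.

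Within the MYC family the partners and antagonists moved beside Mycn. Myc itself read 8.65, 8.52 and 8.75 in the parental arrays and 7.23 in the array labelled GFP-transfected (difference -1.41, SE 0.12, limma adjusted p = 0.00232), and the tumour lines were higher than both, at 9.47 to 10.61. The antagonist gene Mxd4 read 9.09, 9.17 and 9.03 against 7.25 (-1.85, SE 0.10), with a dimmer probe set at 0.07 not called. Mxd3 (-0.80) fell as well, but not without parental array 3 (adjusted p = 0.051). Max, the obligate partner, rose from 9.02, 8.94 and 8.89 to 9.97 (1.01, SE 0.10), above the tumour lines at 9.16 to 9.71. Of 13 members 5 fell and 4 rose. Without parental array 3 these counts were 2 and 2, and in the 8-array fit 3 and 2.

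Ribosome biogenesis genes were higher, each by a small amount. Of 26 measured, 19 rose and 0 fell, against 10.6% of all genes higher, with a median difference of 0.57. The array labelled GFP-transfected was the highest of all 8 arrays for 24 of the 26, against 22.0% of all genes. The nucleolar genes Nop16 (10.30, 10.47 and 10.33 against 11.46, difference 1.09, SE 0.11), Nolc1 (11.85, 11.86 and 11.86 against 12.91, difference 1.05, SE 0.09) and Rrp12 (8.53, 8.49 and 8.42 against 9.50, difference 1.02, SE 0.09) led. In each the parental arrays lay together and the array labelled GFP-transfected was above all of them and above the tumour lines. Polymerase I subunit genes Polr1b (0.72) and Polr1a (0.54) rose, and Polr1c was not called. The abundant genes Npm1 and Fbl were not called. The calls leaned on parental array 3, without which 6 of the 19 were left, and on parental array 1, without which 13 were. Polr1b and Polr1a were among those lost without parental array 3 (adjusted p = 0.0531 and 0.0667) and in the 8-array fit (0.0816 and 0.0561), and Polr1a also without parental array 1 (0.0534). The median difference without parental array 3 was 0.57. Against the tumour lines 19 members were higher and 0 lower (median 0.65, all genes higher 15.9%).

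The E-box CACGTG, a palindrome that MYC and MAX bind, was in the promoter windows of 2187 of 27025 genes (8.09%) and of 5 of the 21 ribosome biogenesis members with a window (23.8%), 4 of the 16 higher members and 1 of the 5 not called. It was in 0 of the 16 interferon members, and the interferon core was in 0 of the 21. Among the metabolic genes tied to MYC, described next, the E-box was in the windows of 3 of 15, 0 of the 8 higher members and 3 of the 7 not called. Nop2, an rRNA methyltransferase gene, read 10.72, 10.64 and 10.62 in the parental arrays and 11.19 in the array labelled GFP-transfected (0.53, SE 0.09, adjusted p = 0.0808 without parental array 3). Its stretch is shown as the example before a gene start, with the E-box in capitals, on the plus strand of GRCm38.p6.
Nop2, chr6:125131798-125131853: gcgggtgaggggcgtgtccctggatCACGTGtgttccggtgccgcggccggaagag

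**Figure D4:**
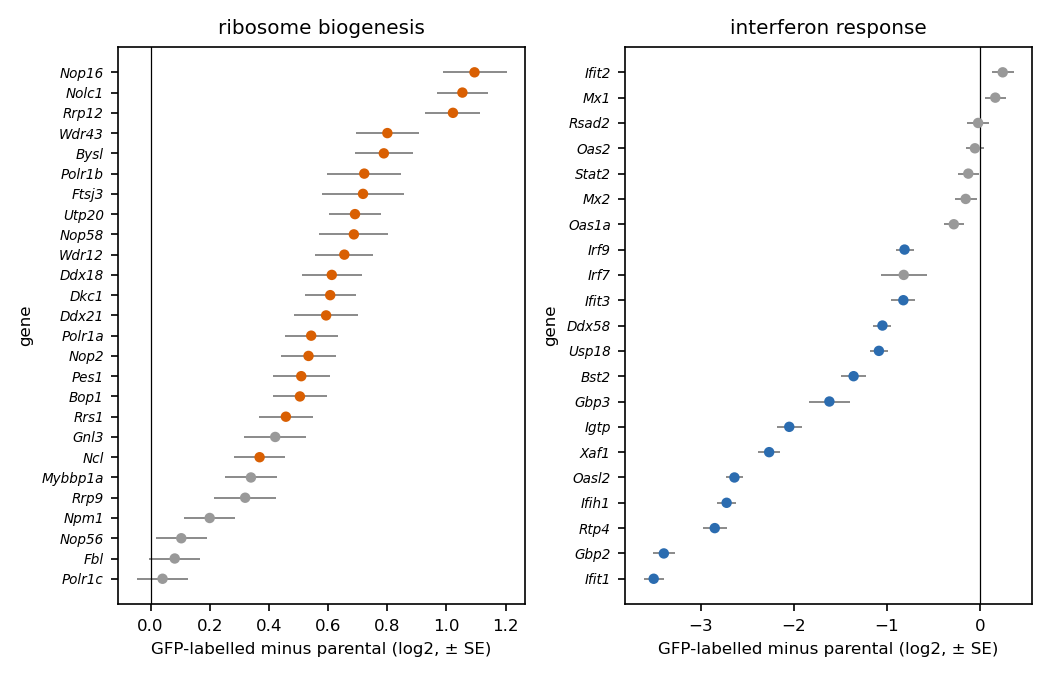
Difference between the array labelled GFP-transfected and the mean of 3 parental arrays (log2 scale, bars give the SE) for the 26 ribosome biogenesis genes and the 21 interferon response genes measured, with called genes in orange (higher) or blue (lower) and the others in grey. The ribosome biogenesis genes reach 1.09 (Nop16) and the interferon genes -3.51 (Ifit1), on axes of different range.

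Metabolic genes tied to MYC rose in 10 of 19 and fell in 0 (median 0.38). The array labelled GFP-transfected was the highest of all 8 arrays for 16 of the 19, against 22.0% of all genes. The purine synthesis gene Ppat read 10.83, 10.95 and 10.76 in the parental arrays and 11.70 in the array labelled GFP-transfected (0.86, SE 0.11), above the tumour lines at 10.71 to 11.12. The one-carbon enzyme gene Shmt1 (0.73) and Odc1 (0.60), the first enzyme of polyamine synthesis, rose. The glutamine transporter gene Slc1a5 (0.89) and the nucleotide precursor gene Prps2 (0.63) rose as well, but were not called without parental array 3 (adjusted p = 0.0503 and 0.057). The same held for Odc1 (0.0574; 0.149 in the 8-array fit). Only 2 rises were called without that array, 5 without parental array 1 and 6 in the 8-array fit. The cytosolic ribosomal protein genes, 13 in number, had 0 calls and a median of 0.01.

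Proliferation genes moved little as lists. Of 26 DNA replication genes 1 rose and 0 fell (median 0.06), and of 23 mitosis genes 1 rose and 3 fell (median 0.10). With the trended and robust prior these counts were 7 and 4 for replication and 9 and 4 for mitosis. With each gene's probe sets averaged they were 5 and 2, and 2 and 2. The proliferation marker Mki67 read 12.03, 12.08 and 11.94 against 12.31 (0.30, adjusted p = 0.115), called, of the alternatives run, only with the trended and robust prior. Cell cycle inhibitors went both ways. Cdkn2a read 12.41, 12.20 and 12.17 against 11.02 (-1.24, SE 0.13) and its neighbour Cdkn2b 11.46, 11.45 and 11.48 against 9.95 (-1.51, SE 0.09), whereas Cdkn1a, the p53-induced inhibitor gene, read 10.83, 10.83 and 10.73 against 11.56 (0.76, SE 0.09). The tumour lines had Cdkn1a at 8.08 to 8.35, 3.33 lower than the array labelled GFP-transfected (limma adjusted p = 6.6e-07 for the difference of 3.33). In the G1 list 5 rose and 5 fell of 20, among the rises the cyclin gene Ccne2 (0.68) and the factor gene E2f2 (0.84). Without parental array 3 the counts were 3 and 2, and in the mitosis list 0 rises and 1 fall.

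p53 target genes split as well, 5 higher and 6 lower of 21 (median 0.06), or 2 and 5 without parental array 3. Perp (3.85), the nuclease gene Aen (0.78), Cdkn1a and Mdm2 rose, Aen (adjusted p = 0.0501) and Mdm2 (0.63, adjusted p = 0.0536) not without parental array 3. Pmaip1 (-1.03), a gene for a BH3-only death factor, and the antiproliferative gene Btg2 (-0.95) fell. In the BCL2 family 4 of 14 fell and 1 rose, with Bmf at 9.58, 9.66 and 9.52 in the parental arrays and 7.39 in the array labelled GFP-transfected (-2.19) and Bcl2l11 at -0.89, both with dimmer probe sets not called, while Bid rose by 1.24.

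Most neural crest regulators were not called. Of 25, 6 fell and 1 rose (median 0.01), against 11.4% and 10.6% of all genes. The falls numbered 4 without parental array 3, 5 without parental array 1 or in the 8-array fit, and 7 without parental array 2. Prrx1, a homeobox gene of mesenchyme, read 8.94 ± 0.10 (SD, n = 3) against 5.21 (-3.73, SE 0.11), and 9.84 to 10.44 in the tumour lines. Pax3 (-1.21), Snai1 (-0.88) and Snai2 (-0.82), genes for transcription factors of crest specification and emigration, fell less. Tfap2b fell by 1.05, but was not called without parental array 3 (adjusted p = 0.0627). The progenitor filament gene Nes rose (0.87), though not in the 8-array fit (adjusted p = 0.12). Sox10 (7.35 against 7.34 ± 0.13, SD, n = 3), Twist1 (9.36 against 9.31 ± 0.14, SD, n = 3) and Ets1 (11.37 against 11.36 ± 0.11, SD, n = 3) were within the spread of the parental arrays, and Ngfr was not called (0.16, adjusted p = 0.54). The line's label as neural crest precursor cells thus has markers present in both groups (Twist1, Ets1, Pax3, Snai2) and others near the level of no signal in both (Foxd3 at 4.56 and Pax7 at 4.80).

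Lineage markers downstream of the crest were mostly flat. Of 20 sympathoadrenal and neuroblastoma genes 1 rose and 2 fell (median 0.00). Th (5.08 against 5.08 ± 0.19, SD, n = 3), the tyrosine hydroxylase gene of catecholamine cells, Hand2 (0.07) and Alk (0.29) were not called. Ddc, another catecholamine enzyme gene, fell (-1.56), with a dimmer probe set at -0.11 not called. Among 11 melanocyte genes Mitf, the lineage's master regulator gene, rose from 6.60, 6.43 and 6.55 to 8.88 (2.36, SE 0.11), at the tumour lines' level of 8.51 to 8.88, and Gpnmb fell (-1.52). Dimmer probe sets of both genes were not called. Of 14 Schwann cell and glial genes 3 fell and 1 rose, led by Egr2 (-2.42) and Cnp (-1.25). Of 24 neuronal genes 3 fell and 2 rose, or 2 and 0 without parental array 3. Skeletal muscle genes rose in 3 of 13, with 1 called without parental array 3, and the troponin gene Tnnt3 (1.08) had the largest rise. Bone and cartilage genes had 2 falls and 1 rise of 13, the rise being that of the peptidase gene Phex (1.85).

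Some genes of unrelated tissues rose. The fatty acid carrier gene Fabp4 read 6.63, 6.59 and 6.33 in the parental arrays and 9.17 in the array labelled GFP-transfected (2.65, SE 0.15), above the tumour lines at 4.72 to 5.29, while the other 10 adipocyte markers gave 3 falls and 0 rises, with 0 falls without parental array 3. In a desmosome and epithelial list of 22, 4 rose and 3 fell, with Dsp, the desmoplakin gene, at 8.06, 7.91 and 7.93 against 10.50 (2.53, SE 0.10) and Perp the largest. Epcam (-0.68) and the plakoglobin gene Jup (-0.97) fell, Epcam not without parental array 3 (adjusted p = 0.0545), where 2 rises and 2 falls were left. Rhox5, an X-linked homeobox gene, read 10.03, 10.07 and 9.95 against 12.27 (2.25, SE 0.10), and was the 1 call in a germ-cell list of 18. The tumour lines had it at 5.13 to 5.58. Other probe sets of Fabp4 (0.22 and 0.04) and Dsp (0.36) were dim and not called.

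Imprinted genes, expressed from 1 parental allele, fell in 13 and rose in 2 of 24 (median -0.55). Plagl1, a zinc finger regulator gene of growth, read 11.34, 11.24 and 11.27 in the parental arrays and 6.88 in the array labelled GFP-transfected (-4.40, SE 0.09). Mest read 12.75, 12.70 and 12.76 against 9.08 (-3.66, SE 0.09), and Peg10 (-2.44) and Peg3 (-2.36) fell. For Plagl1 and Mest the tumour lines were also below the parental arrays, at 8.87 to 10.82 and 7.94 to 10.30. The growth inhibitor gene Phlda2 rose (1.68), but was not called without parental array 3 (adjusted p = 0.0652). Dimmer probe sets of Plagl1 and Peg3 were not called. Hox genes, which set position along the body, fell in 10 of 33 and rose in 0 (median -0.16), led by Hoxd8 (8.80, 8.75 and 8.71 against 6.75, difference -2.00). Without parental array 3 the falls numbered 4, and in the 8-array fit 3.

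Stress and metabolic lists were mixed. Their counts stand against 10.6% of all genes higher and 11.4% lower. Mgst1, a membrane glutathione transferase gene, read 8.48, 8.20 and 8.25 against 3.64, at the level of no signal (-4.67, SE 0.14), with the tumour lines at 11.28 to 13.07 and a dimmer probe set not called (-0.02). Gstm2 (-2.55) fell, and Hmox1, the heme oxygenase gene, rose from 8.17, 8.51 and 8.44 to 10.01 (1.64, SE 0.15). In all, NRF2 and glutathione genes rose in 4 and fell in 4 of 15, with 1 rise without parental array 3. The small heat shock protein gene Hspb8 fell by 2.98, with another probe set at -0.08 not called. Hypoxia and glycolysis genes rose in 3, among them the hexokinase gene Hk2 (1.03), and fell in 4 of 22, among them Bnip3 (-1.19); 2 falls were called without parental array 3. Unfolded protein and ATF4 genes rose in 3 and fell in 5 of 18, with Ddit3 (-0.90) and Xbp1 (-0.80) among the falls. Cholesterol synthesis genes rose in 1 and fell in 3 of 19, none of them called without parental array 3, and respiratory chain genes fell in 2 of 19, of which 0 were called without any one of the parental arrays.

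**Figure D5:**
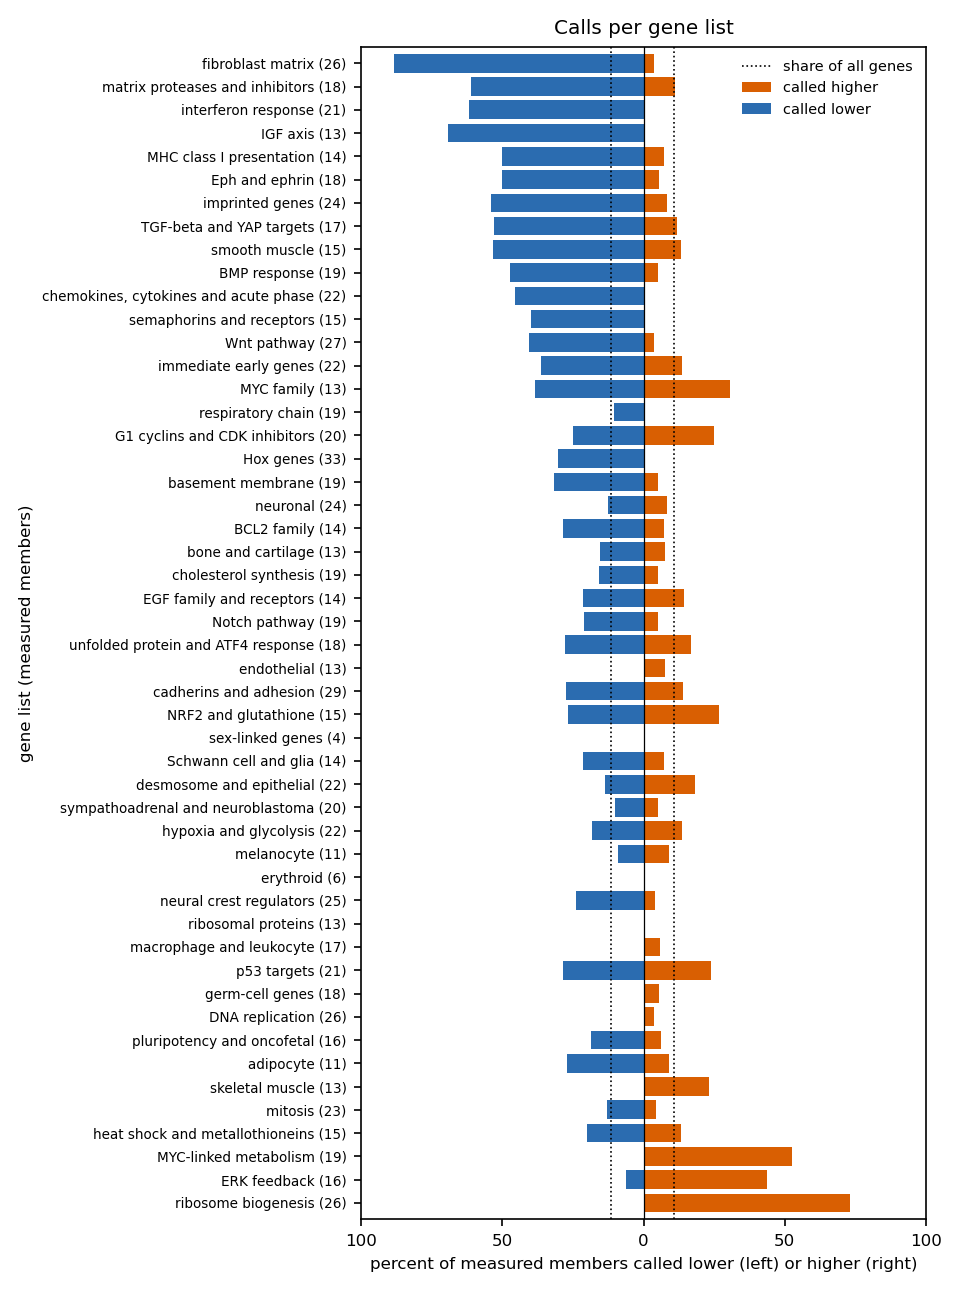
Percent of the measured members of each gene list called lower (blue, left) or higher (orange, right) in the array labelled GFP-transfected, ordered by the median difference, with the number measured in brackets. Dotted lines give the share of all genes (11.4% lower, 10.6% higher); fibroblast matrix genes (23 of 26 lower) and ribosome biogenesis genes (19 of 26 higher) lie at the ends.

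Along the genome, every chromosome with genes measured had both higher and lower calls except Y, where 0 of 9 genes were called. Chromosome 2 had the lowest median among chromosomes with many genes, -0.07, with 242 of 1399 genes lower (17.3%) and 89 higher (6.36%). Restricted to genes above the median mean level, its median was -0.15. Windows of 15 genes in chromosome order were taken only from genes above the median mean level, so dimmer genes between them were skipped. Among 8800 such windows, 1 had a median at least 2-fold lower and 0 had one at least 2-fold higher. The lowest window ran from Col4a5 to Fgd1 on chromosome X (median -1.01, 8 genes lower and 2 higher), and the highest from Ankrd1 to Noc3l on chromosome 19 (median 0.80, 9 higher and 0 lower).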

How the data were processed

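Each of 8 mouse RNA samples was hybridised to its own Affymetrix expression array. The table deposited by the authors holds log2 values per probe set and array, made with RMA and Partek, named without versions per the submitters' processing notes. The sources used here name no genome build. The RMA method normalizes arrays to a shared distribution and pulls weak signals towards a floor, so levels are relative and differences of dim genes are understated. Columns were matched to samples by title, and 0 columns of per-sample values belonged to no sample.

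Of 45101 probe sets, 64 controls were left out, 932 with several symbols and 9160 with none were not used for genes, and 34945 were. Gene IDs were looked up in the RefSeq table of GRCm38.p6, which held 34741 of them, and 0 symbols changed. For 1626 genes the probe set used was of a kind that can bind several transcripts (_x_at or _s_at). Promoter windows and their sequences are those of RefSeq, GRCm38.p6.

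The fit of the comparison used the 3 parental arrays and the array labelled GFP-transfected in limma 3.58.1 (R 4.3.3, lmFit and eBayes, two-sided), with Benjamini-Hochberg adjustment over 45037 probe sets. The comparison with tumour lines came from a fit of all 8 arrays. The scripts were tested on simulated data. Named genes were a set of anchors, the 15 called genes that rose most and the 15 that fell most outside the parental range, up to 4 called members of each of 50 gene lists and up to 2 going against the list's median. Other list members are named as examples chosen after their values were seen. Members and lists were chosen with earlier results of these data known. Of 950 listed genes 880 were measured; the others were not analysed here. Alternatives covered the spread, each parental array left out, the variance prior, normalization, centring, dim or shared probe sets, the summary of a gene's probe sets and the set over which p-values were adjusted. The number of arrays limits the precision.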

Additional observations from a re-analysis of the deposited data

Results flagged for a closer look

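Among the 15 largest rises and 15 largest falls, 5 genes had 1 tumour line apart from the other 3. Other named genes with such a line are not listed here. Chance alone marks about 1 in 20 groups of this size. Line 4 was the lowest for Perp, at 9.27. Line 6 was the lowest for Spo11, at 4.70, and the highest for Lox (13.52), Islr (6.12) and Tagln (13.68). The array labelled GFP-transfected lay within the range of the tumour lines for Perp (9.93), above it for Spo11 (8.73), and below it for Lox (6.08), Islr (4.82) and Tagln (7.63), with and without the line that stood apart, except that for Perp it lay below the other 3 lines.

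Probe sets with no gene symbol were outside the comparison of genes, and some differed strongly. Of 9160, 587 (6.41%) were called, 379 higher and 208 lower in the array labelled GFP-transfected. The largest falls were those of 1448754_at, from 9.81, 9.86 and 9.43 in the parental arrays to 4.55 (difference -5.15), and of 1450876_at, from 8.22, 7.88 and 8.10 to 3.21 (difference -4.85). The largest rises were those of 1458599_at, from 6.59, 6.26 and 6.51 to 9.39 (difference 2.93), and of 1440960_at, from 5.02, 4.79 and 4.60 to 7.23 (difference 2.43). Among 932 probe sets with several symbols 136 were called (14.6%), 78 higher and 58 lower.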

How the results depend on the processing

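No named gene changed direction with a call under any alternative run. The Mycn probe sets kept their calls, and the counts of features at least 2-fold apart, of matrix genes lower and of genes called against tumour lines stayed within 1.5 times. Leaving out 1 parental array gave 3276 to 7826 probe sets in place of 7721, 1381 to 4188 in place of 4222 higher and 1895 to 3638 in place of 3499 lower. It gave 1880 to 3871 genes in place of 3994, 712 to 1842 in place of 1926 higher and 1168 to 2029 in place of 2068 lower. It gave 223 to 340 list members called in place of 339, 6 to 18 ribosome biogenesis genes in place of 19 and 2 to 9 MYC-linked metabolism genes in place of 10. Leaving out any 1 parental array lowers the residual degrees of freedom equally. The lowest of each count came without parental array 3, and why was not tested. Of the 1880 genes called without it, 1872 were also among the 3994. With 1 spread over all 8 arrays, 1248 genes were higher, 220 list members called, 5 interferon genes lower and 6 MYC-linked metabolism genes higher. With a trended and robust prior, 6042 genes were called, 3111 of them higher, with 6527 probe sets and 16 MYC-linked metabolism genes higher. The chromosome 2 median was -0.148 over genes above the median level. For the last 3 settings the cause was not tested. Of 206 named genes, 41 lost the call in the 8-array fit and 39 without parental array 3. The medians of 12 lists changed sign in some alternative, the largest of them 0.0739 in size. No paired analysis was possible because the 2 groups share fewer than 2 replicate numbers. Signals near the trpnX level limit how far a dim gene could be seen to fall.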
